A study of Mus musculus with 76 samples.

Results

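Chemokine ligands were taken as every gene whose symbol begins with Ccl, Cxcl, Cx3cl or Xcl followed by a digit, which gave 33 of the 18194 genes with a probe set of their own. They comprised 18 Ccl genes, 13 Cxcl genes, Cx3cl1 and Xcl1, and each was read through its probe set with the highest mean over the 76 arrays. A gene was tested where it lay above the array's 40th percentile in at least 4 arrays, which held for 32 of the 33 ligands and 13868 of all genes. Of those 32, 21 lay above that percentile in all 76 arrays and 11 in some. Cxcl15, a neutrophil attractant known from lung, lay above it in 0 arrays (3.93 to 4.74 on the log2 scale) and was not tested. Of the 33 genes 12 lie on mouse chromosome 11, 10 on chromosome 5 and 4 on chromosome 8, and 13 had several probe sets. Probe sets that name several genes, among them those of Ccl19 and Ccl21, were not used.

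Chemokines are small, mostly secreted proteins that bind G protein-coupled receptors on leukocytes and on other cells and guide their movement along gradients. Their families are named after the spacing of the first cysteines (CC, CXC, CX3C and C), and in tumours they are made by malignant cells, fibroblasts, endothelium and macrophages. By the cells they are best known to attract, the ligands fall into monocyte, eosinophil, neutrophil and T cell attractants, and the last include the interferon-induced ligands of Cxcr3 and the Ccr4 ligands made by dendritic cells and macrophages.

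The arrays (Affymetrix, total RNA of whole tumours from C57BL/6 mice) come from a directed complementation model, in which tumours first driven by a doxycycline-inducible HER2 with the substitution V659E lost that driver on doxycycline withdrawal and received 1 of 13 genes in its place. The introduced genes were ErbB3, FGFR2aIIIb, FGFR2aIIIc, FGFR3, HER2, MAP3K11 (the kinase MLK3), MAP3K7 (the kinase TAK1), PIP5K1B, RON+MSP, RONd160, RSK2 and TNK2 with 6 arrays each, and FAK1 with 4. The 6 MAP3K11 arrays are the ones labelled with cachexia and the other 70 are labelled without it, so MAP3K11 and cachexia cannot be told apart here. There was no tumour without an introduced gene, so each group was set against the average of the other 12 group means, and these comparisons share arrays with each other. The titles call the arrays biological replicates at T1, T2 or T3, labels that are not defined further, and name neither the animal nor the cell line behind an array.

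The arrays were divided into 38 pairs within the groups. In each group the division was taken that gave the highest summed correlation of the median of each autosome's genes, with the ligands left out. This profile correlated at a median of 0.957 within pairs (lowest 0.477, in MAP3K11), 0.162 between other arrays of a group and -0.03 between groups. The pairs were chosen by this correlation, so its height within pairs is no evidence for them. With the autosome medians subtracted, the genes correlated at a median of 0.771 within pairs and 0.275 between other arrays of a group. The members of all 38 pairs carried different T labels. What makes the pairs alike was not tested, and arrays of a pair may not be independent of each other; p-values measure only the spread between these samples. Every count of called ligands is therefore given in 2 ways, first with each array as a sample and then with the pair as a random block. Values are log2 intensities as deposited; the control probe sets for the bacterial trp gene had a median of 2.95, and the 40th percentile lay between 4.68 and 4.86.

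In the test among the 13 groups, 27 of the 32 ligands differed at an adjusted p below 0.05 (limma's moderated F test, Benjamini-Hochberg adjustment over all genes tested), beside 85.9% of all genes. With pairs as a block 15 ligands differed, beside 54% of all genes. Those 15 were Ccl2, Ccl5, Ccl6, Ccl9, Ccl11, Ccl12, Ccl17, Ccl20, Ccl22, Ccl24, Ccl27a, Cxcl10, Cxcl11, Cxcl12 and Cx3cl1. The 5 ligands that did not pass in the first fit were Ccl3 and Cxcl13, the mucosal ligands Ccl28 and Cxcl17, and Cxcl16, a membrane-anchored ligand of Cxcr6. At 84.4% and 46.9%, the share of ligands called lay near that of all genes in both fits. Over the 13 comparisons of 1 group with the other 12, the median difference of the ligands lay between -0.17 (HER2) and 0.17 (TNK2), and that of all genes between -0.02 and 0.02.

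**Figure D1:**
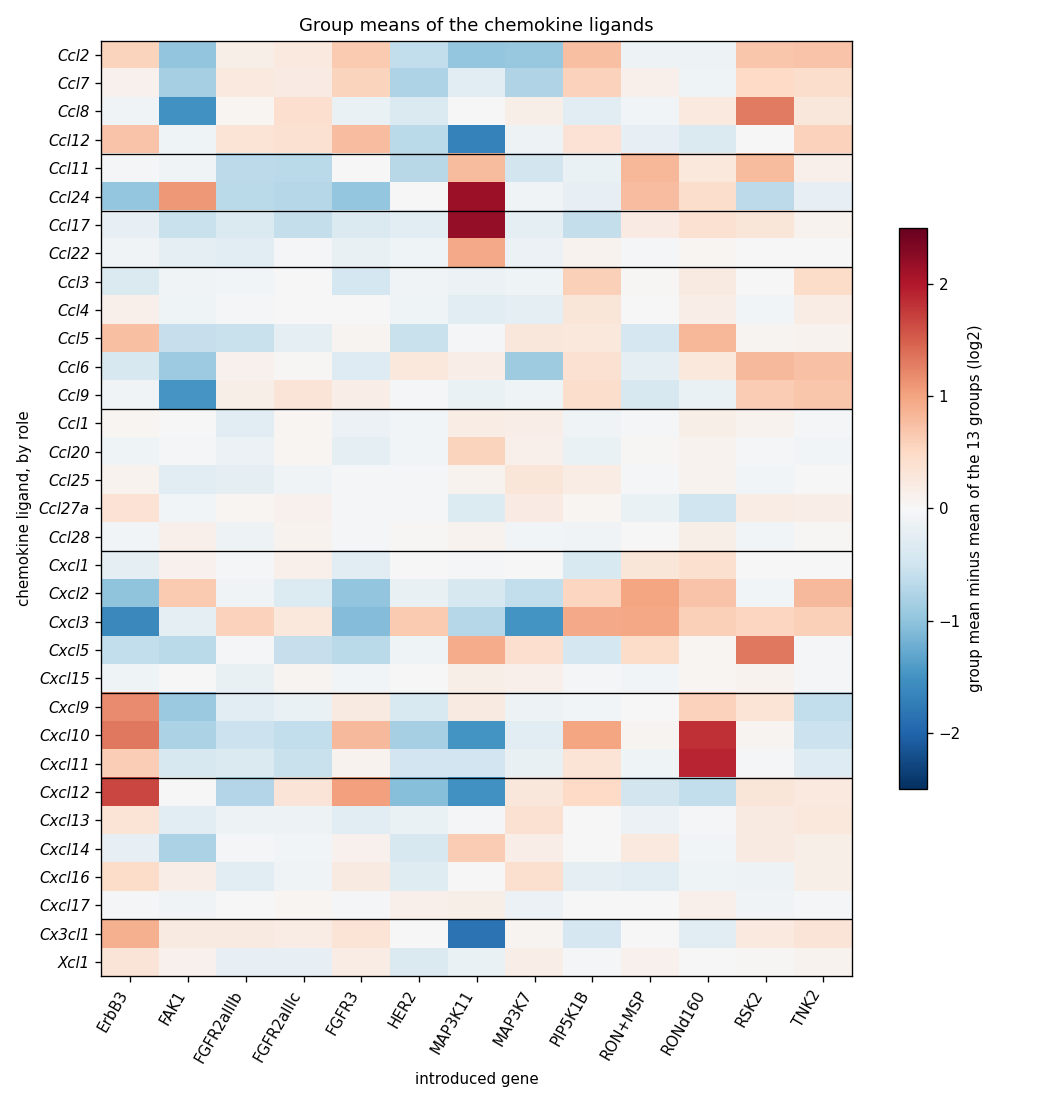
Mean log2 value of each of the 33 ligands in the 13 groups, minus the ligand's mean over the groups; rows are ligands ordered by role and columns are introduced genes. MAP3K11 holds the highest group mean for 8 ligands, Ccl17 and Ccl24 among them, and the lowest for 5, Cx3cl1 among them.

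The ligands varied more than most genes: their median SD over the 76 arrays was 0.69, beside 0.226 for all genes tested. A median of 41.4% of a ligand's sum of squares lay between groups, 41.5% between the pairs of a group and 17.2% within pairs. The medians for all genes were 43.9%, 38.6% and 13.2%. The pairs were chosen for likeness of these same arrays in other genes, which favours a small share within pairs. The shares are not adjusted for the numbers of groups and pairs, so noise alone would also put a part between groups. Ccl17 (70.5%) and Cx3cl1 (66.3%) had the highest shares between groups. At the other end stood Ccl3, a macrophage-derived inflammatory ligand, with 20.4%, and Cxcl13, which draws B cells into follicles, with 21.6%. Cxcl16 differed mostly between pairs of the same group (68.6%), and Ccl1, a Ccr8 ligand, differed most within pairs (41.7%). The 2 arrays of a pair were nearly alike for Cxcl12, the Cxcr4 ligand that retains blood progenitors in bone marrow, with 3.16% of its sum of squares within pairs.

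**Figure D2:**
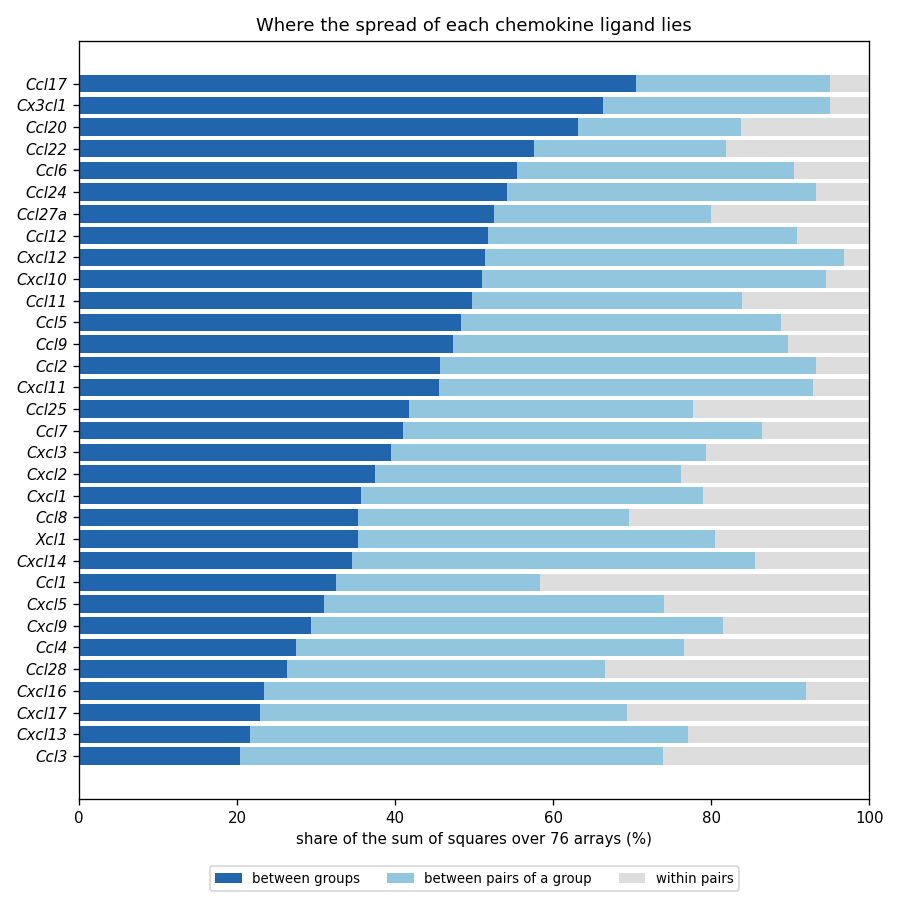
Share of each tested ligand's sum of squares over the 76 arrays, in percent, that lies between groups, between the pairs of a group and within pairs. Ccl17 and Cx3cl1 hold the largest shares between groups, 70.5% and 66.3%. The shares are not adjusted for the numbers of groups and pairs.

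The comparison of MAP3K11 tumours with the other 12 groups showed higher Ccl17, Ccl22 and Ccl24 beside lower Cx3cl1, Cxcl12, Cxcl10, Ccl12 and Ccl2. Of the 32 ligands, 8 were higher and 7 lower, 15 in all, beside 54.2% of all genes called (25% higher, 29.3% lower). With pairs as a block 11 ligands were called, 5 higher and 6 lower, beside 39.3% of all genes. The median difference over the 32 ligands was -0.03 and that over all genes -0.01, and the share of ligands called lay below that of all genes. Since whole tumours were measured, fewer cells that make a ligand and less of its RNA per cell cannot be told apart.

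Ccl17, which draws Ccr4-bearing T cells such as Th2 and regulatory T cells, ran from 8.19 through a median of 9.14 to 10.08 in the 6 MAP3K11 arrays, and from 5.55 through 6.74 to 8.68 in the other 70. Of the MAP3K11 arrays 5 lay above every other array, and the sixth was passed by 2 RSK2 arrays of 1 pair at 8.38 and 8.68. The difference was 2.39 ± 0.21 (SE), 5.22-fold (adjusted p = 6.18e-15, and 6.02e-11 with pairs). It stayed between 2.21 and 2.56 when each array was left out in turn. Each ± in the text is the SE of the fit with each array as a sample, which makes no allowance for the pairs. Ccl22, the other Ccr4 ligand, ran from 4.73 through 5.81 to 6.69, beside 4.24, 4.77 and 5.31 elsewhere. It was low on the array's scale, with 4 MAP3K11 arrays above all others, and its difference was 1.02 ± 0.12 (2.03-fold; adjusted p = 4.47e-11, and 6.36e-06 with pairs). RNA of Ccr4, their receptor, averaged 4.28 in MAP3K11 and lay between 3.78 and 4.59 over all arrays, under the 40th percentile.

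Cx3cl1, a membrane-tethered ligand that holds Cx3cr1-bearing monocytes, NK cells and T cells, was the ligand most clearly set apart in the other direction. It ran from 6.47 through 7.43 to 7.85 in MAP3K11 and from 7.99 through 9.33 to 10.75 elsewhere. No array overlapped, and of all ligands and groups this was the only such case. How many of all genes set a group apart in this way was not counted, and 54.2% of all genes were called in MAP3K11. The same holds for the counts of MAP3K11 arrays above or below all others given for other ligands. The difference was -1.99 ± 0.20, 3.97-fold lower (adjusted p = 9.86e-13, and 1.78e-09 with pairs). All 4 of its probe sets were lower in MAP3K11, by -1.99, -1.76, -1.26 and -0.28.

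These genes are neighbours. Ccl22 (94745684 to 94751388), Cx3cl1 (94772180 to 94782427) and Ccl17 (94809380 to 94812038) lie in this order within 66.4 kb of mouse chromosome 8 (GRCm38.p6), so the ligand that was lower in MAP3K11 sits between the pair that was higher. Their sequences upstream are shown because of this opposed behaviour of neighbours. Each is the 250 bases before the start of a RefSeq transcript on the plus strand, at chr8:94745434-94745683 for Ccl22, chr8:94771930-94772179 for Cx3cl1 and chr8:94810203-94810452 for Ccl17, and capitals mark a match to a TATA element (TATAAA).
Ccl22: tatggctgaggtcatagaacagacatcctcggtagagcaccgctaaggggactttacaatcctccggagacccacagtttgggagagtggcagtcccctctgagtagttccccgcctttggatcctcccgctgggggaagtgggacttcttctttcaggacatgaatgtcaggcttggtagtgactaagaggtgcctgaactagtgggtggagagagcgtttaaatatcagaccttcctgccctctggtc
Cx3cl1: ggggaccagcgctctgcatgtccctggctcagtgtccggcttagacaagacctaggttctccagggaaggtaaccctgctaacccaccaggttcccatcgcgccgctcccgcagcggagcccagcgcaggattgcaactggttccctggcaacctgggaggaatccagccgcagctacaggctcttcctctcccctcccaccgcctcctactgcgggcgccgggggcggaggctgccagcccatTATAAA
Ccl17: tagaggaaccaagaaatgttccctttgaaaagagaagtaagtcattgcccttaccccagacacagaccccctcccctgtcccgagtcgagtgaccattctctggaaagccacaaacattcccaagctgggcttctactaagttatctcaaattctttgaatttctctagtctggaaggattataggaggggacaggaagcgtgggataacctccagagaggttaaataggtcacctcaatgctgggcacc
The Ccl17 window lies inside the annotated gene, before the start of the transcript in RefSeq's table. Cx3cl1 has the highest GC content of the 3, 64.8% beside 53.6% for Ccl22 and 47.6% for Ccl17, and its TATA match ends at the base before the start. The windows of Ccl22 and Ccl17 held no match to any motif searched (TATAAA; GAAANNGAAA, the core of the interferon response element; TGANTCA, the AP-1 element; and the kappa-B consensus, all on both strands).

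**Figure D3:**
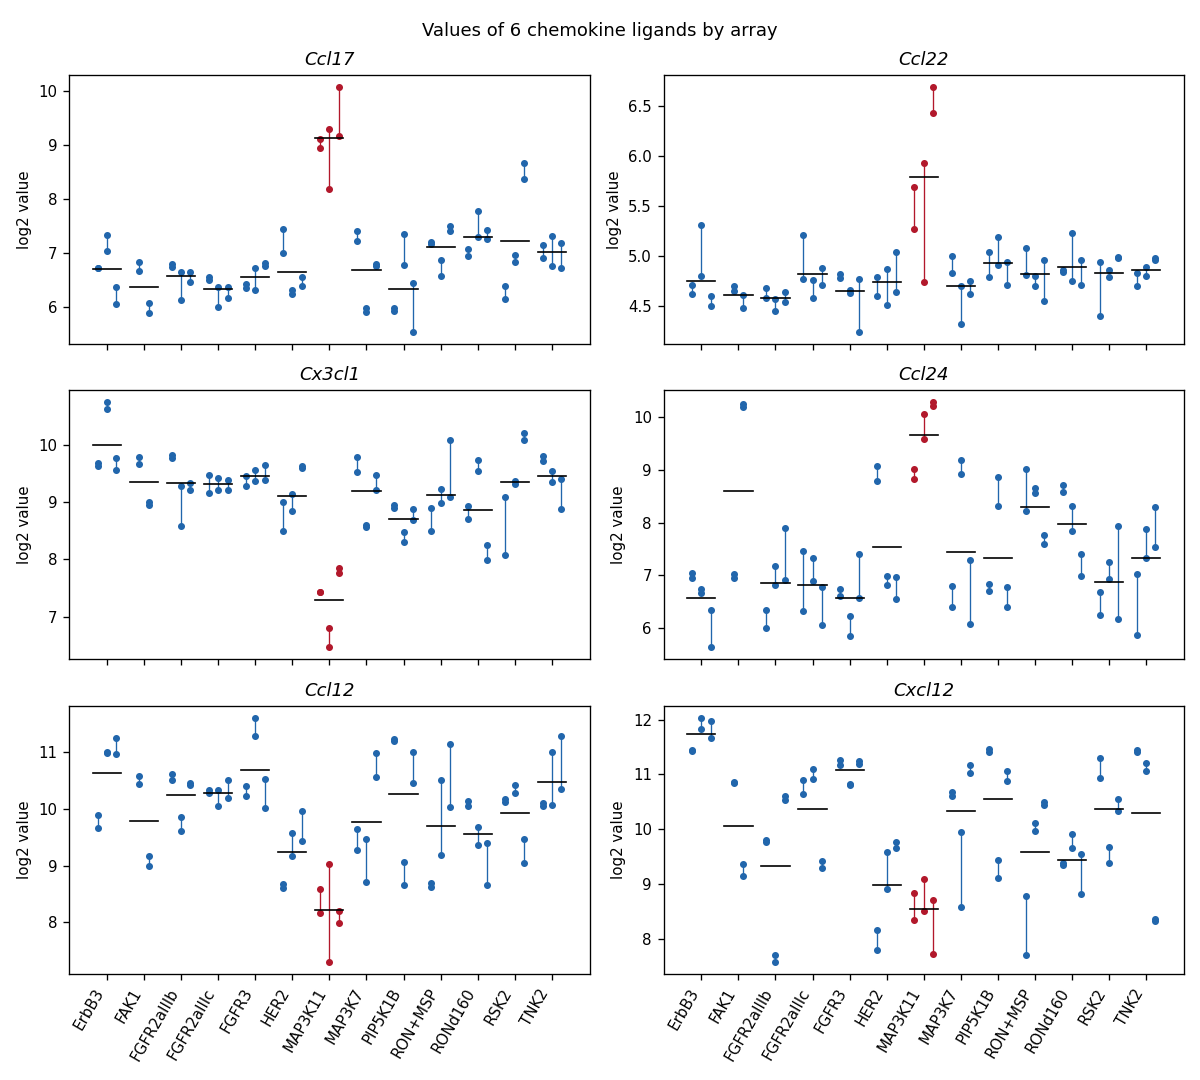
Log2 value of 6 ligands in each of the 76 arrays, by introduced gene; points are arrays, vertical lines join the arrays of a pair, horizontal bars are group means, and MAP3K11 is in red. The MAP3K11 points for Cx3cl1 lie below all others, at 6.47 to 7.85, and 5 of its 6 points for Ccl17 lie above all others. How many of all genes do so was not counted.

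Both eosinophil attractants were higher in MAP3K11. Ccl24 (eotaxin-2) ran from 8.82 through 9.82 to 10.28, beside 5.64, 6.98 and 10.25 elsewhere. The groups overlapped: 7 other arrays lay above the lowest MAP3K11 array, among them a FAK1 pair at 10.19 and 10.25. The difference of 2.32 ± 0.37 was 5.0-fold (adjusted p = 2.82e-07, and 2.36e-05 with pairs). Ccl11 (eotaxin) ran from 7.83 through 8.31 to 8.95, beside 6.13, 7.46 and 9.05, so most of its MAP3K11 values were also reached in other groups. Its difference was 0.86 ± 0.25 (adjusted p = 0.00299), and with pairs the adjusted p was 0.0514. RNA of their receptor Ccr3 lay between 2.57 and 3.21 over all arrays, near the trp controls.

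Among the monocyte attractants, 2 of 4 were lower. Ccl12, a mouse ligand of Ccr2, ran from 7.30 through 8.19 to 9.02 in MAP3K11 and from 8.60 through 10.13 to 11.61 elsewhere, with 5 of the 6 arrays below all others. The difference was -1.84 ± 0.29, 3.58-fold lower (adjusted p = 2.15e-07, and 4.65e-05 with pairs). Ccl2, the principal Ccr2 ligand, ran from 7.14 through 7.62 to 8.32, beside 5.68, 8.94 and 10.35, inside the range of the others. It differed by -1.03 ± 0.32 (adjusted p = 0.00543, and 0.0257 with pairs). Ccl7 (-0.31 ± 0.27, adjusted p = 0.33) and Ccl8 (0.01 ± 0.34, adjusted p = 0.978) did not pass. These 4 genes lie with Ccl11 and Ccl1 in 144 kb of chromosome 11 (82035577 to 82179812), a stretch in which MAP3K11 had 2 ligands higher and 2 lower. Ccr2 itself averaged 5.58 in MAP3K11 and 7.19 elsewhere (-1.61 ± 0.40, adjusted p = 4.48e-04, and 0.00565 with pairs).

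Cxcl12, made mainly by fibroblasts and endothelium, ran from 7.72 through 8.61 to 9.09 in MAP3K11, beside 7.57, 10.51 and 12.03. Low values also occurred in FGFR2aIIIb, RON+MSP and HER2 among other groups. The difference was -1.64 ± 0.38, 3.12-fold lower (adjusted p = 1.99e-04, and 0.001 with pairs), and the other probe sets gave -2.27 and -0.26. Its receptors did not pass: Cxcr4 averaged 7.52 beside 7.42, and Ackr3, a scavenging receptor, 10.37 beside 10.33. Cxcl14, an epithelial ligand, was higher by 0.69 ± 0.20 (10.29 to 11.23 with a median of 10.64, beside 8.20, 10.03 and 11.49; adjusted p = 0.00239, and 0.0255 with pairs).

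Of the interferon-induced genes Cxcl9, Cxcl10 and Cxcl11, Cxcl10 was lower. It ran from 5.24 through 5.64 to 6.10, beside 4.86, 7.24 and 10.29, at the low end of a wide range. The difference was -1.63 ± 0.42, 3.10-fold lower (adjusted p = 7.49e-04, and 0.00547 with pairs). Cxcl11 (-0.53 ± 0.33, adjusted p = 0.173) and Cxcl9 (0.24 ± 0.36, adjusted p = 0.596) did not pass. In the list of interferon response genes 10 of 11 tested were lower and 1, Socs1 (0.35), was higher, with a median difference of -1.28; 10 of the 11 calls were kept with pairs. Gbp2 (-2.10), Ifit1 (-1.57), Ifit3 (-1.54) and Irgm1 (-1.39) were among the lower. Of all genes 54.2% were called in this comparison (29.3% lower), and 39.3% with pairs.

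The remaining calls in MAP3K11 were smaller. Ccl20, the Ccr6 ligand, ran from 5.04 through 5.23 to 5.37, beside 4.32, 4.60 and 5.54. MAP3K7 T3 replicate 1, at 5.54, was the only other array above the lowest of MAP3K11. The difference was 0.59 ± 0.07 (adjusted p = 2.95e-11, and 4.02e-06 with pairs). Ccl27a, a skin ligand of Ccr10, was lower by -0.37 ± 0.10 (4.20, 4.81 and 4.89, beside 4.33, 5.11 and 5.80; adjusted p = 0.00126, and 0.0441 with pairs). It lay inside the range of the others but for 1 array.

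For 3 ligands the call in MAP3K11 was lost both with pairs and without single arrays. Cxcl5, a neutrophil attractant, was at 5.38, 5.86 and 7.03, beside 3.16, 5.10 and 9.29 (0.97 ± 0.41, adjusted p = 0.0379, and 0.185 with pairs). Its call was lost without MAP3K11 T1 replicate 1, T2 replicate 1 or T2 replicate 2, with adjusted p up to 0.133. Ccl4, an inflammatory ligand made by macrophages and T cells, differed by -0.30 ± 0.12 (adjusted p = 0.0215, and 0.151 with pairs). The call was lost without T1 replicate 2, T2 replicate 2 or T3 replicate 1 (up to 0.126). Ccl1 differed by 0.20 ± 0.08 (adjusted p = 0.0416, and 0.298 with pairs), and its call was lost without T2 replicate 2, T3 replicate 1 or T3 replicate 2 (up to 0.189). The other 12 calls were kept whichever array was left out.

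The 17 tested ligands not called in MAP3K11 included Cxcl1, Cxcl2 and Cxcl3, the inflammatory CC ligands Ccl3, Ccl5, Ccl6 and Ccl9, and Ccl7, Ccl8, Ccl25, Ccl28, Cxcl9, Cxcl11, Cxcl13, Cxcl16, Cxcl17 and Xcl1. Their differences lay between -0.77 (Cxcl3, adjusted p = 0.206) and 0.24 (Cxcl9).

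**Figure D4:**
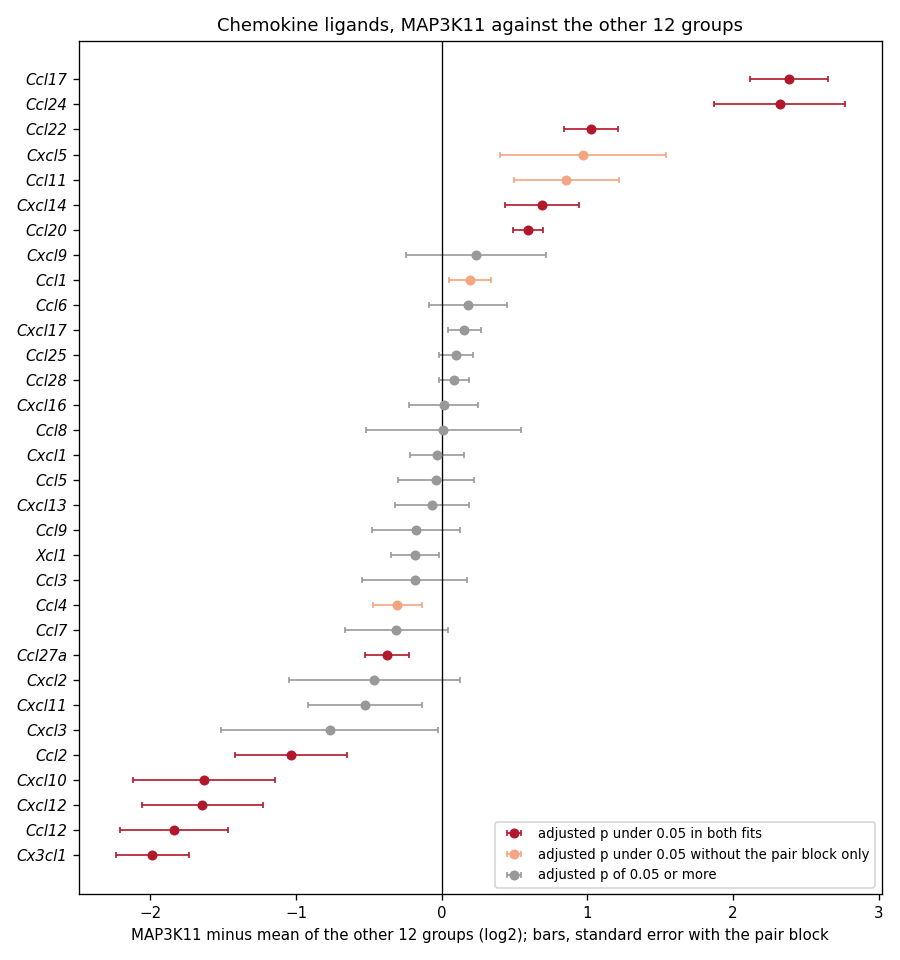
Log2 difference between MAP3K11 and the mean of the other 12 groups for each tested ligand, with its standard error with the pair block; ligands are ordered by difference, dark red marks calls in both fits, orange calls lost with the pair block, and grey no call. Ccl17 (2.39) and Ccl24 (2.32) stand at one end and Cx3cl1 (-1.99) at the other.

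Markers of other cells were also called in the same comparison, beside 54.2% of all genes (25% higher, 29.3% lower) and 39.3% with pairs. Several of the counts below lay near or under the share of all genes called. Macrophage genes were lower in 5 of 10 and higher in 0 (median -0.43; 4 calls kept with pairs), among them Adgre1 (-0.72), C1qb (-0.70), C1qc (-0.56) and Cd68 (-0.44). The array means of that list, centred on the mean of all arrays, lay between -0.57 and -0.22 in MAP3K11. Dendritic cell genes were higher in 2 of 5 (both kept with pairs), Itgax (1.58) and Flt3 (0.53), with array means from 0.30 to 0.70. Fibroblast genes were higher in 6 of 8 and lower in 1, and 7 calls were kept with pairs (Fap 1.97, Thy1 1.58, Col1a1 0.87, Dcn -1.47), with array means of 0.33 to 0.81. Endothelial genes were higher in 5 of 7 (3 with pairs; array means 0.22 to 0.61) and epithelial genes in 3 of 7 (2 with pairs; array means 0.41 to 0.86; Krt19 2.47). Muscle genes were lower in 5 of 6, 2 of them with pairs, and their array means lay between -2.63 and -2.33. T cell genes were higher in 2 of 4 and B cell genes in 1 of 4, all lost with pairs, NK genes in 1 of 6 (Gzmb 1.20, kept with pairs), lymphatic genes in 1 of 2 (kept with pairs) and neutrophil genes in 0 of 6. The part of these cells in the ligand differences was not tested. In the NF-kB list 3 of 12 genes were higher and 5 lower, 6 of these calls kept with pairs, among them Csf2 (2.48) and Csf1 (-1.59).

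Against MAP3K7 tumours alone, MAP3K11 had 7 ligands higher and 4 lower, 11 in all, beside 37.4% of all genes (16.6% higher, 20.8% lower). With pairs 8 were called, beside 21.6%. Ccl17 was higher by 2.45 ± 0.29 (adjusted p = 4.26e-10, and 5.22e-07 with pairs), Ccl24 by 2.22 ± 0.50 and Ccl22 by 1.09 ± 0.16. Ccl6, a macrophage-derived Ccr1 ligand, was higher by 1.06 ± 0.28 (adjusted p = 0.00207, and 0.0285 with pairs), which it was not against the 12 groups together. Cx3cl1 was lower by -1.91 ± 0.28, Cxcl12 by -1.80 ± 0.51 and Ccl12 by -1.56 ± 0.39, and all of these were kept with pairs. Ccl20 was higher by 0.42 ± 0.09 (adjusted p with pairs 0.0254). Ccl11 (1.26), Ccl27a (-0.54) and Cxcl17 (0.29) lost their calls with pairs, at 0.0533, 0.0518 and 0.182. Cxcl17 also lost its call without MAP3K11 T1 replicate 1, MAP3K11 T3 replicate 1 or MAP3K7 T2 replicate 2 (adjusted p up to 0.0924). Without MAP3K7 T1 replicate 2 and T3 replicate 1, a pair that lies apart in that group, 13 ligands were called.

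Against HER2, the reintroduced original driver, 6 were higher and 2 lower, 8 in all, beside 49.2% of all genes (21.5% higher, 27.7% lower). With pairs 7 were called, beside 33.3%. Ccl17 (2.47 ± 0.29, adjusted p = 1.49e-10), Ccl24 (2.13 ± 0.50), Ccl11 (1.50 ± 0.34), Ccl22 (1.05 ± 0.16), Cxcl14 (1.04 ± 0.27) and Ccl20 (0.61 ± 0.09) were higher and kept with pairs. Cx3cl1 was lower by -1.83 ± 0.28 (adjusted p = 1.24e-07, and 2.03e-05 with pairs). Ccl12, at -1.02 ± 0.39, was lost with pairs (0.112) and without HER2 T3 replicate 1, HER2 T3 replicate 2 or MAP3K11 T1 replicate 2 (adjusted p up to 0.0793). The comparisons with MAP3K7 and with HER2 share the 6 MAP3K11 arrays.

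Among the interferon-induced genes, Cxcl10 and Cxcl11 had their highest group means in RONd160 and Cxcl9 in ErbB3. These genes lie in 42 kb of chromosome 5 (92321331 to 92363296) and are textbook targets of interferon. Cxcl9 and Cxcl10 bind Cxcr3 on activated T and NK cells, while Cxcl11 is annotated as a transcribed pseudogene in GRCm38.p6, so its values describe that RNA alone. The 250 bases before the RefSeq starts of Cxcl10 (chr5:92348890-92349139) and Cxcl9 (chr5:92328080-92328329), both on the minus strand of GRCm38.p6, are shown because these ligands are known for such elements; capitals mark every motif match.
Cxcl10: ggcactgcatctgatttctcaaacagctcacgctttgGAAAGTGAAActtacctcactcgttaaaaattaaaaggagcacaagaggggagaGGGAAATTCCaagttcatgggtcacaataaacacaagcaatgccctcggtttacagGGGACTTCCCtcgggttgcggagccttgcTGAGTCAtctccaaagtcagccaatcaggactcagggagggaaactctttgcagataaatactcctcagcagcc
Cxcl9: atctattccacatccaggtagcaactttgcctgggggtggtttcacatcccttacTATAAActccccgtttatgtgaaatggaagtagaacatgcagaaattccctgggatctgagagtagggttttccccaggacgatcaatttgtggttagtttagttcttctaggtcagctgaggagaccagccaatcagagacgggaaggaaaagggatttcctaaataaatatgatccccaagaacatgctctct
In Cxcl10 the first run of capitals is the interferon response element core, 213 to 204 bases before the start, followed by kappa-B matches at 159 to 150 and 103 to 94 and an AP-1 element at 74 to 68. In Cxcl9 the capitals mark a TATA element at 195 to 190, and no other motif matched. Over 23 ligands with a window, the interferon core matched in 2 (8.7%; Cxcl10 and Cxcl14), beside 2.98% of 32851 windows of all genes. The kappa-B consensus matched in 6 (26.1%, beside 3.9%), the AP-1 element in 2 (8.7%, beside 6.75%) and the TATA element in 8 (34.8%, beside 12.4%), with 0 overlaps between different motifs.

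In RONd160 5 ligands were called, 4 higher and 1 lower, beside 23.3% of all genes; with pairs 4 were called, beside 8.73%. Cxcl11 was at 8.14 and 8.59 in 1 pair, 7.40 and 7.75 in another and 4.98 and 5.21 in the last, beside a mean of 4.95 elsewhere. The last pair was no higher than many arrays of other groups, and the first lay above every one of them. The difference was 2.05 ± 0.33, 4.15-fold (adjusted p = 4.41e-06, and 3.70e-04 with pairs). Cxcl10 was at 9.65 and 10.29, 9.39 and 9.45, and 7.89 and 7.23 in the same pairs. Its difference was 2.00 ± 0.42 (adjusted p = 2.87e-04, and 0.00596 with pairs). Cxcl9, at 5.49, 6.08 and 6.57, did not pass.

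Ccl5, a T cell and monocyte attractant made by T cells and other interferon-exposed cells, was at 7.14, 7.83 and 8.31 in RONd160. It was higher by 0.90 ± 0.21 (adjusted p = 0.00115, and 0.0255 with pairs). Cxcl1, a neutrophil attractant, was at 8.81, 9.01 and 9.27 and higher by 0.44 ± 0.13 (adjusted p = 0.00872, and 0.12 with pairs). Ccl27a was the ligand that was lower, at 4.33, 4.55 and 4.76 (-0.54 ± 0.10, adjusted p = 6.81e-05, and 0.0197 with pairs). Each of the 5 calls was kept whichever array was left out, and with arrays weighted by their quality 8 ligands were called. The interferon list moved alongside, with 8 of 11 genes higher and 0 lower (median 1.15; 7 kept with pairs; Ifit3 2.07, Ifit1 1.82, Mx1 1.62, Igtp 1.43). Its centred array means lay between 0.17 and 1.63. Epithelial genes were higher in 2 of 7 (1 with pairs), NF-kB genes in 2 of 12 (both with pairs), and macrophage genes lower in 2 of 10 (0 with pairs). Of all genes 23.3% were called in RONd160, and 8.73% with pairs. The part of these lists in the ligand values was not tested.

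**Figure D5:**
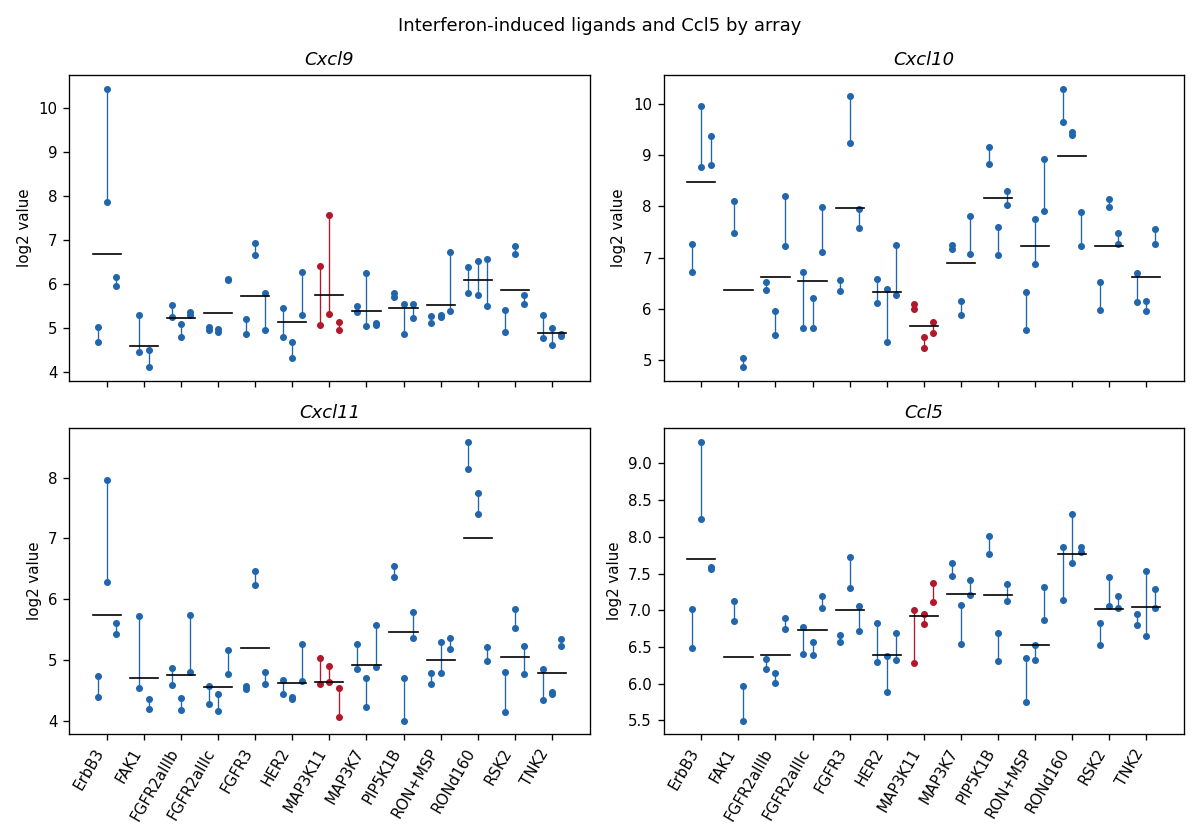
Log2 values of Cxcl9, Cxcl10, Cxcl11 and Ccl5 in each of the 76 arrays, by introduced gene; points are arrays, vertical lines join the arrays of a pair, horizontal bars are group means, and MAP3K11 is in red. For Cxcl11 4 of the 6 RONd160 points lie at 7.40 or more, and the other 2 at 4.98 and 5.21.

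The arrays highest for 1 of these ligands were often the highest for the next. Of the 10 arrays highest for Cxcl10, 8 were among the 10 highest for Cxcl11, 6 among those for Ccl5 and 5 among those for Cxcl9. The 10 highest for the interferon list's mean shared 8 with Cxcl10, 8 with Cxcl11, 7 with Ccl5 and 5 with Cxcl9. High arrays also occurred in groups without a call: an FGFR3 pair had Cxcl10 at 9.24 and 10.15 and Cxcl11 at 6.23 and 6.47, and Cxcl10 in PIP5K1B ran from 7.06 through 8.17 to 9.15. Among the chemotactic neighbours Ccl2 and Ccl7 9 of the 10 highest arrays were shared, and for Ccl2 and Ccl12 7. These counts describe arrays of which some form a pair, and no test was made of them.

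In ErbB3 tumours 11 ligands were called, 8 higher and 3 lower, beside 28.6% of all genes; with pairs 3 were called, beside 11.9%. Those 3 were Cxcl12, Cx3cl1 and Ccl5. Cxcl12 ran from 11.42 through 11.75 to 12.03, with 4 arrays above all others, and was higher by 1.85 ± 0.38, 3.61-fold (adjusted p = 2.06e-04, and 0.00215 with pairs). Cx3cl1, at 9.57, 9.73 and 10.75, was higher by 0.98 ± 0.21 (adjusted p = 2.52e-04, and 0.00648 with pairs); 2 arrays of 1 pair lay above all others. Both were thus highest in ErbB3 and lower in MAP3K11. Ccl5, at 6.48, 7.58 and 9.30, was higher by 0.78 ± 0.21 (adjusted p = 0.00416, and 0.0491 with pairs), and lost its call without ErbB3 T3 replicate 2 (0.0877).

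The other ErbB3 calls were lost with pairs. Cxcl10 (6.73, 8.79 and 9.95) was higher by 1.37 ± 0.42 (adjusted p = 0.011, and 0.0546 with pairs). Cxcl9 (4.67, 6.05 and 10.44) was higher by 1.21 ± 0.36 (0.00864, and 0.0921 with pairs), with 7.86 and 10.44 in a single pair that lay above every other array. Ccl12 (0.79), Ccl27a (0.39) and Xcl1 (0.35), a ligand for cross-presenting dendritic cells, had adjusted p values with pairs of 0.164, 0.0806 and 0.171. Ccl24 was lower by -1.03 (0.138 with pairs) and Cxcl2 by -1.14 (0.222 with pairs). The count of called ligands was 5 without ErbB3 T1 replicate 2, 5 without T3 replicate 2 and 7 without T3 replicate 3. Beside these, macrophage genes were higher in 7 of 10 (5 with pairs; array means 0.20 to 0.88) and interferon genes in 9 of 11 (1 with pairs; array means -0.37 to 1.43). Epithelial genes were higher in 1 of 7 (Epcam 0.29) and lower in 2, the keratins Krt18 (-3.63) and Krt8 (-1.02); both keratin calls were kept with pairs, and the array means lay between -1.76 and 0.07. Fibroblast genes, a source of Cxcl12, were higher in 3 of 8 (Col3a1 0.36, Dcn 0.92, Pdgfra 1.18) and lower in 1 (Thy1 -0.99), 3 of them with pairs, with array means of -0.04 to 0.74. Endothelial genes were called in 0 of 7. Neutrophil genes were higher in 2 of 6 and lower in 0 (1 with pairs). NF-kB genes were higher in 2 of 12 and lower in 3 (0 with pairs). Of all genes 28.6% were called in ErbB3, and 11.9% with pairs. The part of these lists in the ligand values was not tested.

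Of the neutrophil attractants, Cxcl2 and Cxcl3 were lower in ErbB3. Cxcl3 was at 5.24 and 6.16 in 1 pair but at 2.55 and 2.53, and 2.67 and 2.46, in the others. Those 4 arrays lay below every other array. Their values were also under the median of the trp controls (2.95) and under the 40th percentile (4.68 or more). The size of the Cxcl3 difference thus rests on background values in those 4 arrays. The difference was -1.73 ± 0.52 (adjusted p = 0.00919, and 0.126 with pairs), and the call was lost without ErbB3 T1 replicate 2 (0.0512). Cxcl2 and Cxcl3, ligands of Cxcr2 from 1 stretch of chromosome 5 (Cxcl5 to Cxcl2, 90759298 to 90905938, 147 kb), shared 7 of their 10 highest arrays, while Cxcl1 and Cxcl2 shared 4. Their windows, both on the plus strand of GRCm38.p6 at chr5:90785851-90786100 (Cxcl3) and chr5:90903649-90903898 (Cxcl2), are shown because they carry the same kappa-B match; capitals mark that match and, in Cxcl3, a TATA element.
Cxcl3: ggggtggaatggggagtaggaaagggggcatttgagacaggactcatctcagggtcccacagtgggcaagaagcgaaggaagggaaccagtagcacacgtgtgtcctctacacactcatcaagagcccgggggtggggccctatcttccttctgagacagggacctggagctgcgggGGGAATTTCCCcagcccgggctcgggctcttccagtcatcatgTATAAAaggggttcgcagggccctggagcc
Cxcl2: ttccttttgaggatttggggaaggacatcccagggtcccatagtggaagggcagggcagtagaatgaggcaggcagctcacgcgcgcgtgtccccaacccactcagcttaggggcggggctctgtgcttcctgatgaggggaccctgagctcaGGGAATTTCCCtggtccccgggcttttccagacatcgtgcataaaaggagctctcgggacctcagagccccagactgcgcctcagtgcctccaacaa
The kappa-B match was found on both strands, 73 to 63 bases before the start in Cxcl3 and 97 to 87 in Cxcl2.

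FAK1 tumours had 4 ligands called, all lower, beside 8.42% of all genes; with pairs 1 was called, beside 0.808%. FAK1 had the lowest group mean for 11 of the 33 ligands, and its 4 arrays formed 2 unlike pairs. Ccl9, a macrophage-derived Ccr1 ligand, was at 9.96 and 10.36 in 1 pair and at 6.80 and 8.08 in the other, which lay below every other array. The difference was -1.59 ± 0.29 (adjusted p = 2.29e-04, and 0.0225 with pairs), and was not called without FAK1 T1 replicate 2 (0.0628). Ccl8, a monocyte attractant, was at 9.98 and 10.24 beside 7.13 and 8.68 (-1.62 ± 0.41, adjusted p = 0.00872, and 0.25 with pairs). Ccl6 (-0.97, 0.147 with pairs) and Cxcl14 (-0.84, 0.194 with pairs) were also lower. The count was 9 without FAK1 T1 replicate 1, 8 without T2 replicate 1, 1 without T3 replicate 1 and 0 without T1 replicate 2. Ccl24 went the other way in 1 pair, at 10.19 and 10.25. With arrays weighted by their quality 0 were called. Endothelial genes were lower in 3 of 7 and fibroblast genes in 3 of 8, all lost with pairs, and macrophage genes in 0 of 10; their part was not tested.

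RSK2 tumours had 5 ligands higher and 0 lower, beside 18.2% of all genes; with pairs 0 were called, beside 2.59%, and 5 had an unadjusted p below 0.05. Ccl8 ran from 10.57 through 11.90 to 12.72, with 2 arrays of 1 pair above all others, and was higher by 1.42 ± 0.34 (adjusted p = 0.00299, and 0.114 with pairs). Cxcl5 was at 5.11, 5.63 and 9.29, and its difference of 1.44 ± 0.41 (0.00941, and 0.141 with pairs) came with 1 pair at 7.86 and 9.29. Ccl6 ran from 11.74 through 12.01 to 12.27 (0.86 ± 0.21, 0.00302, and 0.0611 with pairs). Ccl11 (0.86, 0.17 with pairs) and Ccl9 (0.68, 0.19 with pairs) were also higher. The count fell to 2 without RSK2 T1 replicate 1 and to 3 without T2 replicate 2. In the same arrays muscle genes were higher in 6 of 6 (0 with pairs; array means 1.19 to 4.46), endothelial genes in 6 of 7 (2 with pairs) and fibroblast genes in 5 of 8 (1 with pairs). Their part was not tested.

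MAP3K7 tumours had 1 ligand higher and 4 lower, beside 24.4% of all genes; with pairs 1 was called, beside 7.9%. That one was Ccl6, at 9.75, 10.29 and 10.88, lower by -0.96 ± 0.21 (adjusted p = 5.11e-04, and 0.0166 with pairs), a call kept whichever array was left out. Cxcl3 (-1.62, 0.179 with pairs), Ccl2 (-1.02, 0.086 with pairs) and Ccl7 (-0.81, 0.146 with pairs) were lower, and Ccl25, the thymic and gut ligand of Ccr9, was higher by 0.32 (0.0817 with pairs). Ccl2 was at 5.68 and 6.91 in the pair of T1 replicate 2 and T3 replicate 1 and between 8.29 and 8.54 in the other 4 arrays. Without that pair the differences were -0.33 for Ccl2, -0.59 for Ccl7 and -1.45 for Cxcl3, none of them called. Without T1 replicate 2 alone, 2 ligands were called, and with arrays weighted by their quality also 2. Macrophage genes were higher in 2 of 10 (0 with pairs; array means -0.23 to 0.90), fibroblast genes higher in 2 of 8 (1 with pairs; -0.27 to 0.80) and epithelial genes lower in 2 of 7 (1 with pairs; -0.56 to 0.35). Their part was not tested.

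HER2 tumours had 5 ligands lower and 0 higher, beside 26.6% of all genes; with pairs 0 were called, beside 9.55%, and 5 had an unadjusted p below 0.05. These were Cxcl12 (7.80, 9.25 and 9.77; -1.16 ± 0.38, adjusted p = 0.0176, and 0.0608 with pairs), Ccl7 (-0.83), Ccl11 (-0.77), Ccl5 (-0.61) and Xcl1 (-0.40). The count was 3 without HER2 T1 replicate 1, 3 without T1 replicate 2 and 0 without T2 replicate 2, and with arrays weighted by their quality it was 11. Beside them fibroblast genes were lower in 6 of 8 (3 with pairs), NK genes in 5 of 6 (0 with pairs) endothelial genes in 4 of 7 (1 with pairs) and macrophage genes in 2 of 10 (1 with pairs), while epithelial genes were higher in 2 of 7 (1 with pairs), and their part was not tested.

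The counts for both FGFR2 isoforms and FGFR3 moved with the weighting of arrays: with arrays weighted by their quality 7 ligands were called in FGFR2aIIIb, 5 in FGFR2aIIIc and 13 in FGFR3, beside 4, 0 and 1 with equal weights. With equal weights FGFR2aIIIb had 4 lower and 0 higher, beside 11.9% of all genes, and with pairs 0, beside 1.91%, with 3 at an unadjusted p below 0.05. They were Ccl11 (-0.72 ± 0.25, adjusted p = 0.0468), Ccl5 (-0.62 ± 0.21, 0.0426), Ccl1 (-0.28 ± 0.08, 0.0199) and Ccl25 (-0.25 ± 0.08, 0.0307). Leaving out 1 FGFR2aIIIb array gave counts of 1 (T1 replicate 1), 2 (T1 replicate 2), 2 (T2 replicate 1), 1 (T2 replicate 2), 0 (T3 replicate 1) and 2 (T3 replicate 2). FGFR2aIIIc had 0 called, beside 1.62% of all genes, with 3 at an unadjusted p below 0.05, and 0 with pairs, beside 0.0721%, with 2. In FGFR3 Ccl20 was lower by -0.23 ± 0.07 (4.32, 4.42 and 4.64; adjusted p = 0.0487), 1 call beside 2.6% of all genes. With pairs 0 were called, beside 0%, with 4 at an unadjusted p below 0.05, and the Ccl20 call was lost in 45 of 76 fits that left out 1 array.

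PIP5K1B, RON+MSP and TNK2 had 2, 1 and 1 ligands called with equal weights, and 9, 4 and 4 with arrays weighted by their quality. In PIP5K1B Ccl17 (5.55, 6.22 and 7.36; -0.67 ± 0.21, adjusted p = 0.0221) and Cxcl1 (7.97, 8.20 and 8.73; -0.42 ± 0.13, 0.0193) were lower, 2 calls beside 18.7% of all genes. With pairs 0 were called, beside 3.61%, with 4 at an unadjusted p below 0.05. The count was 0 without PIP5K1B T1 replicate 1, 5 without T2 replicate 1 and 1 without T2 replicate 3. Fibroblast genes were lower in 4 of 8 (3 with pairs; array means -1.11 to 0.08) and endothelial genes in 4 of 7 (0 with pairs), with all 6 array means below the mean of all arrays. Their part was not tested. In RON+MSP Ccl11 ran from 7.18 through 8.62 to 8.95 and was higher by 0.89 ± 0.25 (adjusted p = 0.0174, and 0.272 with pairs), 1 call beside 8.57% of all genes. With pairs 0 were called, beside 0.461%, with 1 at an unadjusted p below 0.05. The count was 0 without RON+MSP T1 replicate 2, T3 replicate 1 or T3 replicate 2, 3 without T2 replicate 1 and 2 without FGFR2aIIIb T3 replicate 1. Macrophage genes were lower in 2 of 10 (0 with pairs), and their part was not tested. In TNK2 Ccl6 ran from 11.42 through 11.96 to 12.39 and was higher by 0.79 ± 0.21 (adjusted p = 0.019, and 0.205 with pairs), 1 call beside 5.16% of all genes. The call was lost without TNK2 T1 replicate 2, T2 replicate 2 or T2 replicate 3 (up to 0.0797). With pairs 0 were called, beside 0.0937%, with 2 at an unadjusted p below 0.05. Macrophage genes were higher in 2 of 10 (0 with pairs; array means 0.23 to 0.52), and their part was not tested.

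Side by side over the groups, Ccl6 was lower in MAP3K7 and FAK1 and higher in RSK2 and TNK2, and Ccl11 was higher in MAP3K11, RON+MSP and RSK2 and lower in HER2 and FGFR2aIIIb. Cxcl12 was higher in ErbB3 and lower in MAP3K11 and HER2. With pairs, only the Ccl6 call in MAP3K7 and the Cxcl12 calls in ErbB3 and MAP3K11 remained among these. The calls share arrays, since each group also enters the mean that the others are compared with.

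Of 24 receptor genes listed, 22 were measured and 15 tested. Among the 13 groups 10 of these differed (4 with pairs), beside 85.9% of all genes (54% with pairs). The count called in MAP3K11 was 4 of 15, with and without pairs, beside 54.2% of all genes (39.3% with pairs). In MAP3K11 2 were lower, Ccr2 and Cx3cr1 (7.42 beside 8.50, -1.09 ± 0.32, adjusted p = 0.00286, and 0.0205 with pairs), and 2 higher. The latter were Cxcr6, the Cxcl16 receptor (5.34 beside 4.18, 1.17 ± 0.41, 0.0138, and 0.0394 with pairs), and Ccr7, which guides dendritic cells to lymph nodes (5.48 beside 4.88, 0.59 ± 0.17, 0.00308, and 0.0328 with pairs). Cx3cr1 was thus lower in MAP3K11, as was its ligand Cx3cl1, and higher in ErbB3 by 1.30 ± 0.32 (adjusted p = 0.00168, and 0.0226 with pairs), as Cx3cl1 was there. In ErbB3 Ackr3, a Cxcl12 scavenger, was lower by -0.59 ± 0.15 (0.00291, and 0.0286 with pairs) where Cxcl12 was higher. Ackr1, a decoy receptor on venules, was higher in RSK2 by 1.02 ± 0.19 (1.49e-04, and 0.0213 with pairs). The platelet chemokines Pf4 and Ppbp, which the symbol rule leaves out, were not called in MAP3K11, ErbB3, RONd160, FAK1 or HER2; in RSK2 Pf4 was higher by 0.78 (0.0116, and 0.108 with pairs).

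Among T1, T2 and T3, 0 of 32 ligands differed, beside 0% of all genes, and 0 had an unadjusted p below 0.05, as 325 of all genes did. With pairs 0 differed, beside 0%, and 2 ligands had an unadjusted p below 0.05.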

How the data were processed

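The values are the log2 intensities that the authors deposited as 1 table of 45101 probe sets by 76 arrays; the submitters' processing notes name affy, and the sources used here do not give the method of background correction and normalization. Array medians lay between 5.45 and 5.56, and 0 arrays were identical. Of the probe sets 34958 name 1 gene in the platform annotation, 932 name several and 9211 none. The probe set with the highest mean over all arrays was taken for each gene, and positions came from RefSeq's tables for GRCm38.p6 (18033 genes matched). Promoter windows are RefSeq's, 250 bases before the start, and 10 of the 33 ligands have none in that table.

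All arrays entered 1 limma model (limma 3.58.1, R 4.3.3) with terms for introduced gene and T label, with moderated statistics, two-sided tests and Benjamini-Hochberg adjustment over 13868 genes. Calls are at an adjusted p below 0.05. The correlation within pairs was estimated by duplicateCorrelation (statmod 1.5.0). The fit with each array as a sample was tested on simulated arrays without pairs. The fit with pairs as a block was not tested in this way. Python 3.11.15 and pandas 2.3.3 made the other tables. The number of arrays limits the precision.

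Arrays that share a T label and replicate number in different groups deviated together at a median correlation of -0.02 (lowest -0.50). In the median these numbers thus showed no pairing of samples, and the highest correlation was not examined. Values by array are given for the 12 ligands with the largest F and for the highest and lowest differences of each comparison; the rule names up to 3 called ligands in each direction per group and every called one in MAP3K11, and the called ligands beyond it are named so that all are accounted for. Alternatives were quantile normalization, median centring, no filter and a filter on the mean, the mean of all probe sets, no T term, a replicate block, array weights, a trended robust prior, pairs and leaving out each array. The ligands, gene lists and tests were chosen with earlier results of these data known. An item of the series is not reported here.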

Additional observations from a re-analysis of the deposited data

Results flagged for a closer look

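The 21 ligands named in the comparisons were checked in each of the 13 groups, 273 sets of 4 or 6 arrays, for a single array far from the rest of its group (a gap to the nearest array above Dixon's critical value for the size of the group). Chance alone flags about 1 in 20 sets, and 14 of the 273 were flagged, near the number that chance alone gives.

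MAP3K7 T3 replicate 1 stood apart for 3 ligands that attract neutrophils or Ccr6-bearing cells: Cxcl5 at 8.26 (the other 5 arrays 4.48 to 5.35), Cxcl1 at 9.29 (8.27 to 8.63) and Ccl20 at 5.54 (4.51 to 4.84). Its pair mate, T1 replicate 2, is among those other 5 arrays. The rule can flag only a single array of a set, so the mate could not be flagged as well. RON+MSP T1 replicate 1 was low for 2 macrophage-derived Ccr1 ligands, Ccl6 at 10.27 (10.99 to 11.30) and Ccl9 at 8.98 (9.78 to 10.18). FGFR3 T2 replicate 2 was high for Cxcl3 at 6.54 (2.86 to 4.10) and low for Ccl22 at 4.24 (4.63 to 4.82).

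Ccl22 was also high in ErbB3 T3 replicate 2 at 5.31 (4.49 to 4.80) and low in RSK2 T1 replicate 1 at 4.40 (4.79 to 4.99). HER2 T2 replicate 2 was low for Cxcl14 at 9.15 (9.61 to 9.85), and HER2 T3 replicate 1 was high for Cxcl11 at 5.26 (4.36 to 4.68). Ccl27a was low in MAP3K11 T1 replicate 2 at 4.20 (4.71 to 4.89), Ccl8 in TNK2 T1 replicate 2 at 9.74 (10.86 to 11.37) and Ccl25 in FGFR2aIIIb T2 replicate 2 at 5.57 (5.97 to 6.17). Whether anything but chance sets these arrays apart was not tested.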

How the results depend on the processing

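Treating the 38 pairs as a random block moved the most counts of called ligands: 3 for ErbB3, 1 for FAK1, 0 for FGFR2aIIIb, 0 for FGFR3, 0 for HER2, 1 for MAP3K7, 0 for PIP5K1B, 0 for RON+MSP, 0 for RSK2, 0 for TNK2 and 15 among the 13 groups. Of the 78 calls of single ligands in the 15 comparisons it kept 35 and lost 43, and no alternative reversed a direction. Array weights gave 0 for FAK1, 7 for FGFR2aIIIb, 5 for FGFR2aIIIc, 13 for FGFR3, 11 for HER2, 2 for MAP3K7, 9 for PIP5K1B, 4 for RON+MSP, 8 for RONd160 and 4 for TNK2, and lost 9 of the 78. FGFR3 had 0 under no filter, a filter on the mean, median centring, the mean of all probe sets, and a trended robust prior. Median centring gave 1 for FGFR2aIIIb and 4 for PIP5K1B, the mean of all probe sets 1 for PIP5K1B, and quantile normalization or no T term 2 for TNK2. Leaving out the MAP3K7 pair, chosen after seeing the data, gave 7 for FAK1 and 2 for TNK2. The causes of these moves were not tested. Leaving out 1 array at a time gave 5 to 14 for ErbB3, 0 to 9 for FAK1, 0 to 5 for FGFR2aIIIb, 0 to 1 for FGFR3, 0 to 6 for HER2, 2 to 7 for MAP3K7, 0 to 5 for PIP5K1B, 0 to 3 for RON+MSP, 2 to 5 for RSK2 and 0 to 2 for TNK2; it gave 12 to 15 for MAP3K11 and 5 to 6 for RONd160. The replicate number as a block gave 15 for MAP3K11 and 26 among the groups, and lost 2 of the 78 calls. Whether these numbers pair any samples was judged from a median correlation only.
Dim ligands (Ccl1, Ccl20, Ccl22, Ccl27a, Xcl1) lie near the 40th percentile in most groups, so little signal over background stands behind them. Cxcl3 lay above that percentile in 47 arrays only, and its lowest values, in ErbB3, were under the median of the trp controls (2.95). Cxcl11 lay above the percentile in 40 arrays only, with a median of 4.80 over all arrays. The pairs leave 2 or 3 independent units in a group if they share a tumour, and the labels do not settle this.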

Other observations

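For the 13 ligands with several probe sets, the difference between MAP3K11 and the other 12 groups kept its sign over the probe sets of 12. The exception was Ccl28, where all differences were small (0.09, -0.04 and 0.03). For some ligands the sizes were unlike: Ccl25 had 0.10 in the probe set with the higher mean and 0.53 in the other, Ccl9 -0.18 and -0.50, and Cxcl1 -0.02, -0.02 and -0.41. The probe sets taken for Cxcl1 and for Ccl27a, which has no other, are of a kind that can share sequence with other transcripts. The values above are differences of group means with no test of their own.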
